A study of Mus musculus with 6 samples.

Results

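NF-κB is a family of dimeric transcription factors built from 5 subunits, and the transcripts of these subunits and of 5 of their inhibitors were followed in SL4 cells, a mouse colorectal cancer (CRC) cell line that expresses luciferase. The 10 genes were taken by symbol from the deposited expression table, with Nfkb1, Nfkb2, Rel, Rela and Relb as subunits and Nfkbia, Nfkbib, Nfkbie, Tnfaip3 and Bcl3 as inhibitors. All 10 were found among the 53700 genes listed, each with 1 identifier. Whole-transcriptome RNA-seq was available for 3 libraries of pLV-Control cells and for 3 of pLV-SEMA6A cells, which carry a lentivirus that overexpresses SEMA6A. The sample titles describe the control cells only as SL4 without SEMA6A overexpression, and pLV-Control is the study's name. Whether the control cells carried an empty lentivirus is not stated in the sources used here. No drug or cytokine is named for either group. A single stable pLV-SEMA6A line is described, so an effect of SEMA6A cannot be told apart from a difference between lines. Since nothing states that the libraries of a group came from separate cultures, the p-values measure only the spread between these libraries, which may be technical.

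In resting cells, IκB proteins hold the Rel proteins in the cytoplasm. Receptors of the tumor necrosis factor, interleukin-1 and Toll-like families activate the IKK kinase complex, which marks IκB for destruction and frees the subunits to enter the nucleus. The genes of several inhibitors and of RelB are themselves NF-κB targets, so that the pathway induces its own brakes. In the gut, the pathway is known for inflammatory signalling and for the survival of tumor cells.

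Expression values were deposited as TPM, a unit of transcript abundance that takes transcript length into account, so levels of different genes can be compared. It keeps no read depth, and detection limits could not be given. Sema6a was listed at 0 in every pLV-Control library, while the pLV-SEMA6A libraries held 98.7, 118 and 112 TPM. The defining markers of colon epithelium were nearly absent, since 12 of them summed to between 0.29 and 0.71 TPM in a library, with Epcam, Cdx1 and Cdx2 at 0 throughout. Leukocyte markers (16 genes) summed to between 1.14 and 3.36 TPM, with 8 of them, Cd3e, Itgam and Adgre1 included, at 0 in all libraries. Endothelial markers (8 genes) summed to between 0.19 and 0.56 TPM, with Cdh5, Tie1, Emcn and Cldn5 at 0 in all libraries. Fibroblast markers (10 genes, none at 0 in all libraries) summed to between 160 and 173 TPM in pLV-Control and between 275 and 286 TPM in pLV-SEMA6A, with Col3a1 the highest. Their sum rested on few genes and the list did not move one way, since by limma Acta2, Col1a1 and Col3a1 were called higher (log2 fold changes 1.57, 1.02 and 0.53), Pdgfra and Pdgfrb were called lower (−0.63 and −0.59), and Dcn was not called (−0.08). Pdgfra reached the mean of 1 TPM required for testing only through pLV-Control (1.76 ± 0.33 TPM against 0.78 ± 0.15 TPM). The part of the fibroblast markers in the results was not tested.

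Promoter sequences are shown first because NF-κB is known to act on the promoters of several of these genes. RefSeq promoter windows on GRCm38.p6, which run from 250 bases before the transcription start to 50 after it, were matched for 8 of the 10 members and gave 11 windows. The entries of Nfkb1 and Relb were missing. The processing notes of the submitters name the build mm39, so the coordinates below belong to the printed sequences and not to the expression table. The 3 windows printed are those of the called members with the largest change that had an entry. Each runs 5′ to 3′ on the strand of its gene, and capitals mark matches to the κB consensus motif on either strand. For Tnfaip3 the window with matches is printed, and its other window, which held none, is not.
Bcl3 (chr7:19822706-19823005, GRCm38.p6, minus strand): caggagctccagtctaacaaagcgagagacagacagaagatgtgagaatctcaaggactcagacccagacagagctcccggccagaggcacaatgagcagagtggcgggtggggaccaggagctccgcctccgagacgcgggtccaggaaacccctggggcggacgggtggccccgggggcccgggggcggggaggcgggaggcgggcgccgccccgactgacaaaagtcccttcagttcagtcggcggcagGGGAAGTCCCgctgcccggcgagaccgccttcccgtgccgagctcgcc
Nfkbia (chr12:55492598-55492897, GRCm38.p6, minus strand): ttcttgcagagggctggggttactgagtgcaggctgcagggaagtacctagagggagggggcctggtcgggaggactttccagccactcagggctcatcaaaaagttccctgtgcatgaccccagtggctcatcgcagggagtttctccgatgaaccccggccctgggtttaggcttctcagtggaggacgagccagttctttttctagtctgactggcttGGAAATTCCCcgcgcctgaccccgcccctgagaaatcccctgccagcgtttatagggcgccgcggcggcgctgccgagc
Tnfaip3 (chr10:19015361-19015660, GRCm38.p6, minus strand): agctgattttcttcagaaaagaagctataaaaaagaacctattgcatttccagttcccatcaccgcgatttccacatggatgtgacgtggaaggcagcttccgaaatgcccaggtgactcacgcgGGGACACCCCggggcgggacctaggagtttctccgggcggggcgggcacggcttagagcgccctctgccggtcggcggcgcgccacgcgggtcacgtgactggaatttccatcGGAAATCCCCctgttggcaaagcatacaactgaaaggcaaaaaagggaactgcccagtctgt

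The κB consensus was matched in 8 of the 11 windows and in 6 of the 8 members (Bcl3, Nfkb2, Nfkbia, Nfkbie, Rel and Tnfaip3). Windows 2 and 3 of Nfkb2 overlap and share 1 site, which is counted in both. Among 32851 RefSeq windows of the same length, 8.46% held a match. In Bcl3 the match lay from 2 to 11 bases after the start, and in Nfkbia it lay from 29 to 20 bases before it. Matches that overlap each other on opposite strands were present in Nfkb2 and Rel. No match was found in the windows of Rela and Nfkbib or in the first window of Tnfaip3. The core of the interferon-stimulated response element was found in 0 of the 11 windows and in 3.44% of all windows. The core of the GAS element, TTCNNNGAA, was found in 1 window, the first of Nfkb2, and in 8.3% of all windows. Windows with a κB match belonged both to members that fell and to members that were not called.

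**Figure D1:**
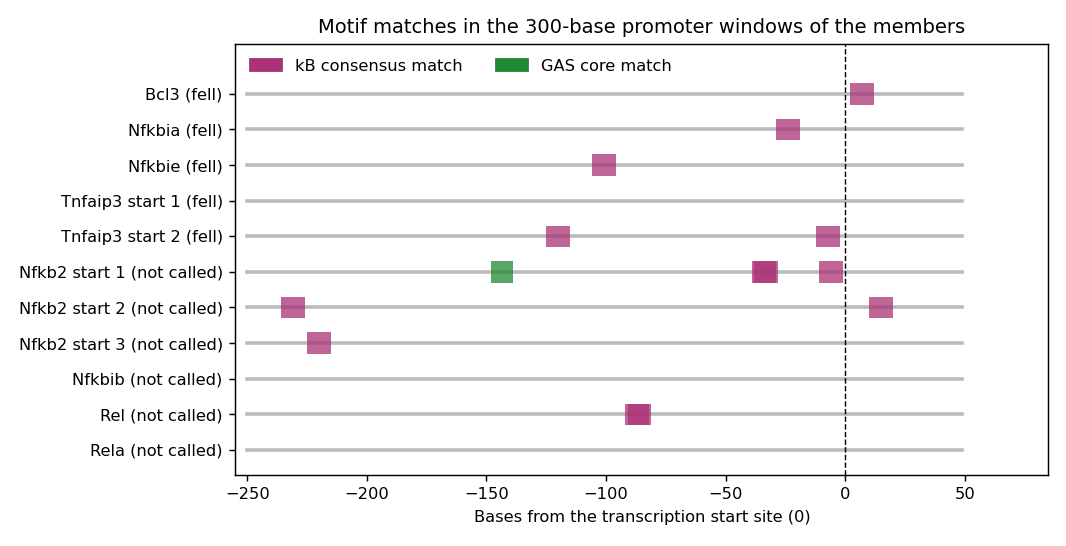
Motif matches in the 11 promoter windows of the members, against the distance in bases from the transcription start (dashed line at 0). Each grey line is a window of 300 bases and each box a match to the κB consensus (purple) or the GAS core (green), and the label says whether the gene fell or was not called. Bcl3, Nfkbia, Tnfaip3 and Nfkb2 have a κB match close to a start, and Rela and Nfkbib have none.

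Of the 10 members, 5 were called lower in pLV-SEMA6A and 0 were called higher. Those called were 1 of the 5 subunits (Relb) and 4 of the 5 inhibitors (Nfkbia, Nfkbie, Tnfaip3 and Bcl3), and their mean TPM fell by 33.0% (Tnfaip3) at the least and fell by 57.9% (Bcl3) at the most. The comparison asks whether transcripts of the pathway differ between cells with and without SEMA6A overexpression. It was made with limma on log2(TPM + 1), a scale that understates changes of low genes, over the 12510 genes whose mean reached 1 TPM. All 10 members reached it. A gene was called when its Benjamini-Hochberg adjusted p was under 0.05 and its log2 fold change exceeded 0.5 in size. Of all genes tested, 15.9% were called, 10.8% as lower and 5.12% as higher. After median centring of the libraries, 961 genes were called lower and 1002 higher, against 1347 and 640 here. The called members were 3 with median centring, with quantile normalization and without pLV-Control replicate 1, in each case Relb, Nfkbia and Bcl3. Without the minimum fold change, 7 members passed, where 47.6% of all genes did. The libraries of the groups did not overlap for 8 members, where 58.5% of all genes tested did not overlap. The median log2 fold change was −0.34 over the members and −0.06 over all genes tested.

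Relb, the subunit that pairs with p52 in the non-canonical pathway, was the one subunit called. The pLV-Control libraries held 32.1, 32.8 and 33.5 TPM of it and the pLV-SEMA6A libraries 20.8, 20.4 and 22.1 TPM. All pLV-SEMA6A libraries lay below all pLV-Control libraries, by a margin wider than the spread within either group. Its log2 fold change of −0.61 (SE 0.05) had an adjusted p of 0.000112 by limma, and its mean TPM fell by 35.7%.

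Nfkb1 encodes p105, the precursor of the DNA-binding subunit p50, and was the most abundant member. Its level was 96.5, 94.0 and 96.9 TPM among pLV-Control libraries against 105, 103 and 102 TPM among pLV-SEMA6A libraries. The pLV-SEMA6A libraries were the higher ones, without overlap. With a log2 fold change of 0.11 (SE 0.03, limma adjusted p = 0.0207) it stayed under the minimum fold. Nfkb2 encodes p100, the precursor of p52 that also restrains RelB. It stood at 54.8, 55.9 and 53.5 TPM (pLV-Control) against 47.9, 51.1 and 48.9 TPM (pLV-SEMA6A). Here the pLV-SEMA6A libraries were the lower ones, without overlap, and the log2 fold change of −0.15 (SE 0.04, limma adjusted p = 0.0194) was again under the minimum.

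Rela encodes p65, the main activating subunit of the canonical pathway. It stood at 43.1, 50.04 and 48.95 TPM (pLV-Control) against 45.1, 50.4 and 46.5 TPM (pLV-SEMA6A), and the groups overlapped. The 95% interval of its log2 fold change reached from −0.17 to 0.17 (limma adjusted p = 0.997). Rel encodes c-Rel, a subunit known best from lymphoid cells. It was low, with 2.78, 3.07 and 2.63 TPM against 2.53, 2.65 and 2.39 TPM, and the groups overlapped. Its log2 fold change of −0.12 had a 95% interval from −0.38 to 0.14 (limma adjusted p = 0.401).

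**Figure D2:**
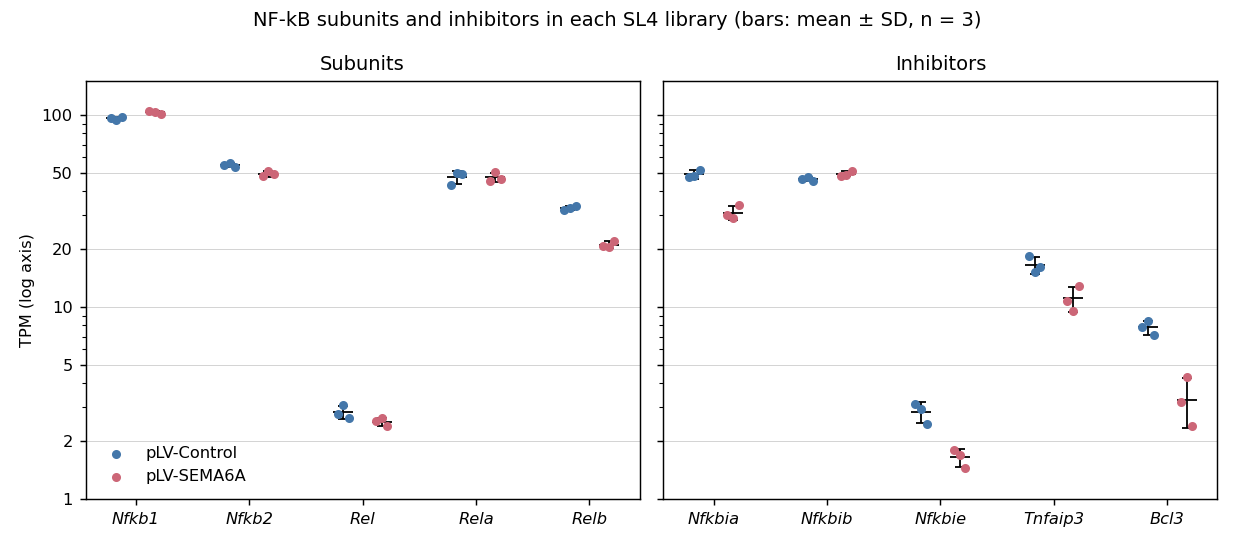
TPM (log axis) of the subunits, left, and the inhibitors, right, in each library. Points are libraries of pLV-Control (blue) and pLV-SEMA6A (red), and black bars give the mean ± SD of 3 libraries. Relb, Nfkbia, Nfkbie, Tnfaip3 and Bcl3 are lower in all pLV-SEMA6A libraries than in any pLV-Control library, and the points of Rela and Rel overlap.

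Among the inhibitors, Bcl3 had the largest change. It encodes an atypical IκB protein that binds dimers of p50 or p52 in the nucleus. Bcl3 was grouped here with the inhibitors, while another atypical IκB gene, Nfkbiz, was listed with co-regulators. The count of called inhibitors depends on this grouping. There were 7.83, 8.48 and 7.15 TPM of Bcl3 in the pLV-Control cells and 3.18, 4.29 and 2.41 TPM in the pLV-SEMA6A cells. The highest pLV-SEMA6A library was well below the lowest pLV-Control library. The mean TPM of Bcl3 fell by 57.9% (log2 fold change −1.06, SE 0.17, limma adjusted p = 0.00265), and 369 of the 12510 genes tested had a lower log2 fold change.

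Nfkbia encodes IκBα, the inhibitor best known as a rapid target of NF-κB. Its libraries held 47.2, 47.9 and 51.9 TPM (pLV-Control) against 30.0, 29.0 and 33.7 TPM (pLV-SEMA6A), without overlap. The mean TPM of Nfkbia fell by 36.9% (log2 fold change −0.65, SE 0.07, limma adjusted p = 0.00046).

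Tnfaip3 encodes A20, a ubiquitin-editing enzyme that ends signalling upstream of IKK. Its libraries held 18.4, 15.1 and 16.04 TPM (pLV-Control) against 10.8, 9.57 and 12.8 TPM (pLV-SEMA6A), without overlap. The mean TPM of Tnfaip3 fell by 33.0% (log2 fold change −0.54, SE 0.12, limma adjusted p = 0.00948). The call ended with median centring of the libraries (−0.45), with quantile normalization (−0.43), without pLV-Control replicate 1 (−0.47) and without pLV-SEMA6A replicate 2 (−0.45).

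Nfkbie encodes IκBε, another classical IκB. Its libraries held 3.11, 2.95 and 2.45 TPM (pLV-Control) against 1.80, 1.69 and 1.45 TPM (pLV-SEMA6A), without overlap. Nfkbie fell with a log2 fold change of −0.53 (SE 0.13, limma adjusted p = 0.0160). The call ended with median centring (−0.44), with quantile normalization (−0.36), without pLV-Control replicate 1 (−0.48) or 2 (−0.51), and without pLV-SEMA6A replicate 3 (−0.48).

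Nfkbib encodes IκBβ, a classical IκB, and was the inhibitor that was not called. Its libraries held 46.4, 47.7 and 45.1 TPM (pLV-Control) against 48.3, 48.9 and 51.2 TPM (pLV-SEMA6A). The pLV-SEMA6A libraries were higher without overlap, and the log2 fold change of 0.09 had a 95% interval from −0.01 to 0.19 (limma adjusted p = 0.105). Exons of Nfkbib overlap those of Sirt2 on the opposite strand. Sirt2 stood at 77.3, 80.95 and 79.6 TPM (pLV-Control) against 60.3, 60.7 and 66.1 TPM (pLV-SEMA6A), lower without overlap. Exons of Nfkb2 overlap those of Psd, which stood at 20.4, 21.5 and 18.2 TPM against 19.2, 14.6 and 12.7 TPM, with overlap between the groups. As strand use in counting is not given in the sources used here, reads from these pairs may not be told apart in the overlap. Little transcript sequence was shared with other genes, at most 1.81% of the 31-base stretches of a member, in Relb.

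**Figure D3:**
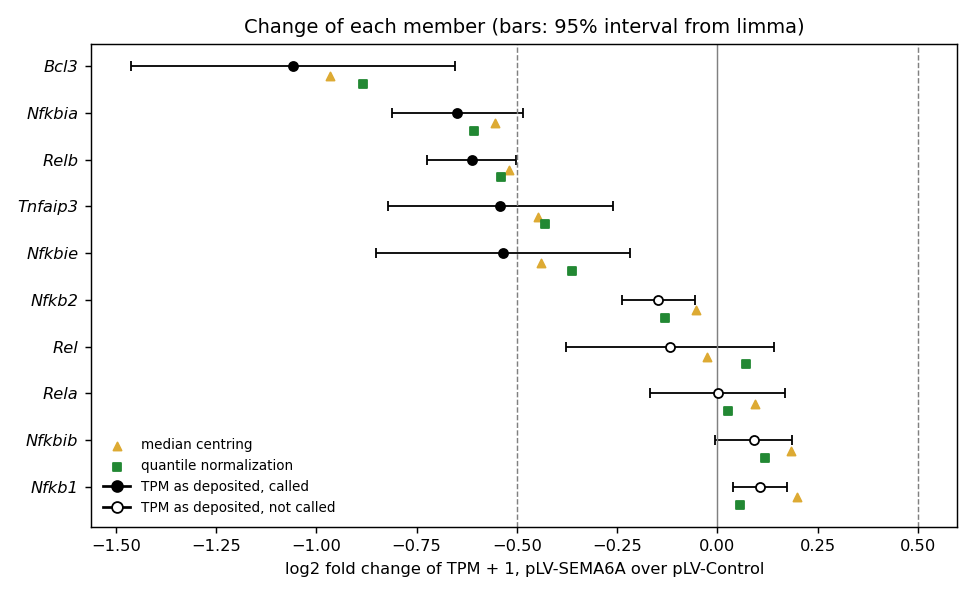
log2 fold change of TPM + 1 for each member, pLV-SEMA6A over pLV-Control. Circles with bars are the values with their 95% interval from limma (filled where called), triangles the values after median centring, squares those after quantile normalization, and dashed lines mark a size of 0.5. Bcl3, Nfkbia and Relb lie beyond −0.5 under each of these scalings, Tnfaip3 and Nfkbie do not after centring or quantile normalization, and Rel lies above 0 after quantile normalization.

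The order of the members by TPM was not the same in the groups. Among pLV-Control libraries, Nfkb1 (mean ± SD of 3 libraries, 95.8 ± 1.61 TPM) came first and Nfkb2 (54.7 ± 1.19 TPM) followed. Nfkbia (48.99 ± 2.53 TPM), Rela (47.4 ± 3.74 TPM) and Nfkbib (46.4 ± 1.31 TPM) came next and overlapped with one another, but not with Nfkb2 or Relb. Relb, Tnfaip3 and Bcl3 followed, each apart from its neighbours, and Nfkbie and Rel were lowest and overlapped. Among pLV-SEMA6A libraries, Nfkb1 (103 ± 1.51 TPM) was again first. Nfkbib (49.45 ± 1.55 TPM), Nfkb2 (49.3 ± 1.62 TPM) and Rela (47.3 ± 2.72 TPM) followed and overlapped with one another, but not with Nfkb1 or Nfkbia. Nfkb2 thus no longer stood apart, and Nfkbib had moved ahead of it by mean. Nfkbia (30.9 ± 2.50 TPM) was below these in all libraries, and Relb, Tnfaip3 and Bcl3 followed in the same order as before. Bcl3 (3.29 ± 0.95 TPM) overlapped with Rel (2.52 ± 0.13 TPM), which it did not in pLV-Control, and Nfkbie (1.65 ± 0.18 TPM) was lowest and apart from Rel.

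The 5 subunits summed to between 229 and 236 TPM (pLV-Control) against 221 to 228 TPM (pLV-SEMA6A). Relb made up 14.0, 13.9 and 14.2% of this sum in pLV-Control against 9.42, 8.95 and 9.97% in pLV-SEMA6A. Nfkb1 made up 42.1, 39.9 and 41.2% against 47.3, 45.4 and 45.9%. Neither share overlapped between groups, with p = 0.1 for each in a two-sided exact permutation test, the smallest p that 3 against 3 libraries allow. The share of Rela, 20.3 ± 1.30% against 21.2 ± 0.85%, did overlap. The classical IκB transcripts Nfkbia, Nfkbib and Nfkbie summed to between 96.7 and 99.4 TPM in pLV-Control and between 79.6 and 86.4 TPM in pLV-SEMA6A.

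Ratios within a library do not depend on how that library was scaled, and Rela served as the denominator. The ratio of Nfkbia to Rela was 1.10, 0.957 and 1.06 in pLV-Control against 0.665, 0.575 and 0.726 in pLV-SEMA6A. The ratio of Relb to Rela was 0.745, 0.654 and 0.684 against 0.461, 0.405 and 0.475. Neither ratio overlapped between the groups, and the ratios of Bcl3, Tnfaip3, Nfkbie and Nfkb2 to Rela did not overlap either (exact permutation p = 0.1 for each). The ratios of Nfkb1, Nfkbib and Rel to Rela overlapped. Such shares and ratios were not computed for all genes tested, of which 58.5% did not overlap between the groups in TPM.

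**Figure D4:**
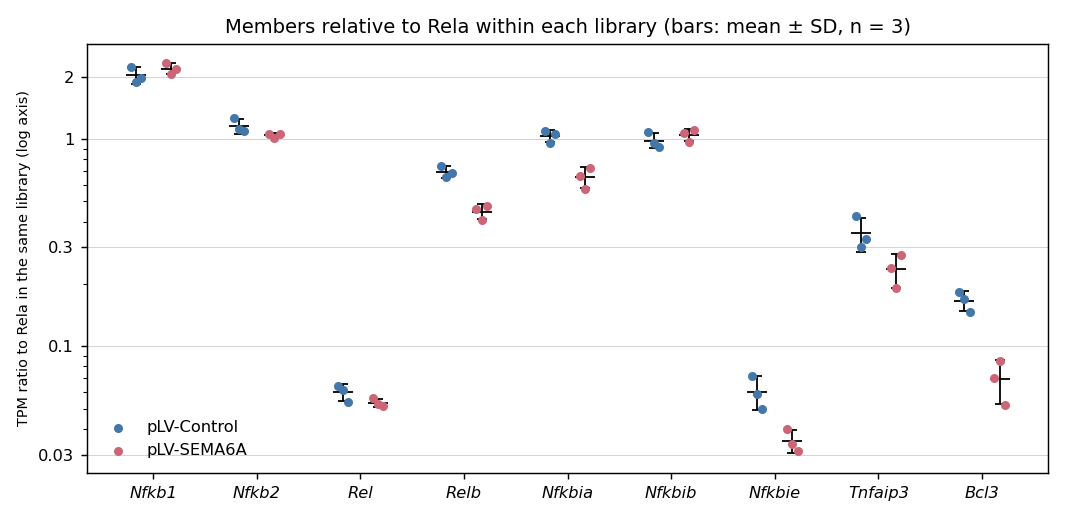
TPM of each other member divided by that of Rela in the same library (log axis). Points are libraries of pLV-Control (blue) and pLV-SEMA6A (red), and black bars give the mean ± SD of 3 libraries. The mean ratio is 0.695 and 0.447 for Relb and 1.04 and 0.656 for Nfkbia in pLV-Control and pLV-SEMA6A, and the points of Nfkb1, Nfkbib and Rel overlap.

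The rest of the pathway was described with lists of 73 genes, of which 57 were tested. Of these, 7 were called lower and 1 higher, and the share of 14.0% was close to the 15.9% of all genes tested. The split became 5 lower and 2 higher with median centring, where Cul1 (0.51) joined Otulin, and 5 lower and 3 higher with quantile normalization, where Il1r1 (0.55) and Nkrf (0.51) joined it. Their median log2 fold change was −0.08. Of the 10 ligands, 9 did not reach a mean of 1 TPM, and the highest value of any of them in a library was 0.55 TPM, with Tnf, Lta, Il1a and Il1b among them. Tnfsf12, which encodes the ligand TWEAK, stood at 8.68 ± 0.55 TPM against 8.17 ± 0.21 TPM, and the groups overlapped.

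Among the receptors and their proximal partners, 1 of 13 was called. Tlr3, an endosomal receptor for double-stranded RNA, held 4.40, 4.57 and 4.67 TPM (pLV-Control) against 3.21, 2.07 and 1.84 TPM (pLV-SEMA6A). The groups did not overlap, and Tlr3 fell with a log2 fold change of −0.74 (limma adjusted p = 0.0105). Tnfrsf12a, the receptor of TWEAK and the most abundant gene of the list, stood at 552 ± 9.84 TPM against 580.2 ± 3.43 TPM, a log2 fold change of 0.07 that was under the minimum fold.

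Among the 13 kinases and their partners, Ikbke alone was called. It encodes IKKε, a kinase that also serves interferon induction, and its libraries held 8.44, 6.33 and 8.01 TPM (pLV-Control) against 3.60, 2.95 and 3.26 TPM (pLV-SEMA6A). The groups did not overlap, and the mean TPM of Ikbke fell by 56.9% (log2 fold change −1.003, SE 0.12, limma adjusted p = 0.000946). The genes of the IKK complex, named here for their role after their values were seen, had log2 fold changes of −0.02 (Chuk), −0.24 (Ikbkb) and −0.21 (Ikbkg), none of them called. For Csnk2a1, the most abundant gene of the list, it was −0.16.

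Of 16 adaptors and ubiquitin ligases, 4 were called, all of them lower, where 15.9% of all genes tested were called. Whether the list differs from all genes in this was not tested. With no minimum fold, 7 of the 16 passed as lower and 4 as higher. Birc2, which encodes the ligase cIAP1, fell from 18.99 ± 1.39 to 11.1 ± 1.02 TPM with a log2 fold change of −0.72. Rnf31, the catalytic subunit of the linear ubiquitin ligase, fell from 15.7 ± 0.34 to 9.41 ± 1.38 TPM with one of −0.69. Malt1 and Bcl10 are partners in a complex downstream of antigen receptors, and their values were −0.74 and −0.51. The call of Bcl10 ended with median centring (−0.42), with quantile normalization (−0.498) and without pLV-Control replicate 2 (−0.48). Ube2n, the most abundant gene of the list, had a log2 fold change of 0.22 and was not called.

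Otulin, a deubiquitinase that removes linear ubiquitin chains, was called higher, as 1 of 9 tested deubiquitinases and A20 partners. Its libraries held 23.5, 23.8 and 22.9 TPM (pLV-Control) against 34.4, 33.1 and 33.9 TPM (pLV-SEMA6A), without overlap. Otulin rose with a log2 fold change of 0.51 (SE 0.04, limma adjusted p = 0.00012), and the call ended without pLV-Control replicate 3 (0.498). Rnf11, the most abundant gene of its list, had a value of −0.06. Of 5 atypical IκB genes and co-regulators tested, Nfkbiz was called. It encodes IκBζ, and its libraries held 8.32, 7.25 and 10.2 TPM (pLV-Control) against 5.15, 5.82 and 5.51 TPM (pLV-SEMA6A), without overlap. Nfkbiz fell with a log2 fold change of −0.55 (limma adjusted p = 0.0105), a call that ended with median centring (−0.46), with quantile normalization (−0.38) and without pLV-Control replicate 3 (−0.43). Commd1, the most abundant gene of this list, had a value of −0.42 and was not called.

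Of 39 genes known as NF-κB targets, 25 were tested. Of these, 16 were called lower and 1 higher, which is 68.0% called against 15.9% of all genes tested. Their median log2 fold change was −0.79. As the list was chosen with earlier results of these data known, this share is a description and not a test. The 14 genes that were not tested held at most 1.29 TPM in any library, Il6, Icam1, Cxcl2 and Nos2 among them. Both Ccl5 and Cxcl10 are also known to be induced by interferon.

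Among the chemokines, Ccl5, which attracts T cells, held 542, 519 and 539.8 TPM (pLV-Control) against 61.5, 73.1 and 71.5 TPM (pLV-SEMA6A). The groups were far apart, and Ccl5 fell with a log2 fold change of −2.94 (SE 0.07, limma adjusted p = 1.05e-06). Cxcl10 fell from 188 ± 1.07 to 58.2 ± 3.14 TPM, and the monocyte attractant Ccl2 from 23.1 ± 1.72 to 7.17 ± 0.35 TPM. Cxcl1, a neutrophil attractant, fell with a log2 fold change of −1.08. Ccl7 had a value of −0.79, a call that ended with quantile normalization (−0.60), without a filter on low values, and when any library but pLV-Control replicate 1 was left out (−0.86 to −0.59).

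Other targets that fell have mixed roles. Gadd45b, a stress-response gene, held 31.9, 31.6 and 35.5 TPM (pLV-Control) against 11.4, 8.45 and 9.70 TPM (pLV-SEMA6A), with a log2 fold change of −1.66. Ptgs2, the inducible cyclooxygenase, fell from 159.8 ± 1.53 to 66.0 ± 1.54 TPM, and Csf1, a growth factor of macrophages, from 919 ± 11.3 to 523 ± 10.9 TPM. These 3 genes did not overlap between the groups. Cflar, which encodes the caspase-8 inhibitor c-FLIP, fell from 46.5 ± 0.29 to 29.6 ± 0.56 TPM. Further falls, as log2 fold changes, were −1.15 for Tnfaip8, −1.13 for the transcription factor Irf1, −0.96 for the adhesion molecule Vcam1 and −0.66 for Ier3. Lcn2 (−1.56), counted among the 16 called lower, reached a mean of 1 TPM only through pLV-Control. Its libraries held 2.80, 2.86 and 2.33 TPM (pLV-Control) against 0.54, 0.24 and 0 TPM (pLV-SEMA6A), near the floor. Lif (−0.81) lost its call without pLV-Control replicate 1 (−0.67). Saa3 (−0.62) lost it with quantile normalization (−0.46), without a filter on low values, without pLV-Control replicate 2 (−0.51) or 3 (−0.60), and without pLV-SEMA6A replicate 1 (−0.49) or 3 (−0.64).

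Ccnd1, which encodes cyclin D1, was the target that rose, from 107 ± 1.13 to 168 ± 0.81 TPM (log2 fold change 0.65, limma adjusted p = 6.88e-06). The 8 tested targets that were not called had log2 fold changes between −0.38 (Ptges) and 0.21 (Plau).

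**Figure D5:**
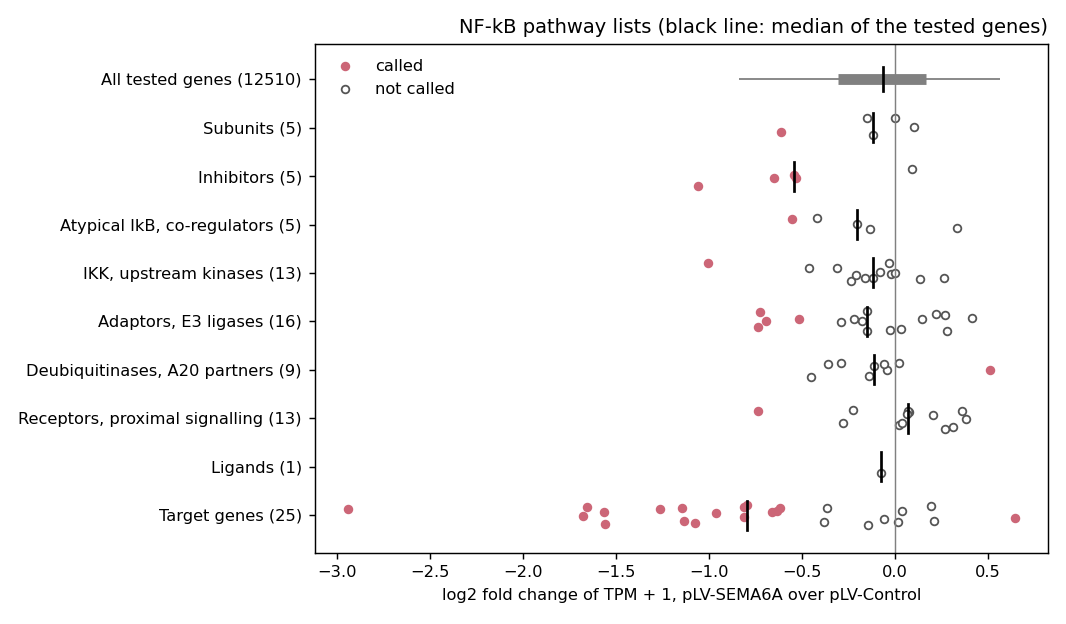
log2 fold change of TPM + 1, pLV-SEMA6A over pLV-Control, for the tested genes of each list, with their number in brackets. Each circle is a gene, filled red where called, black lines are medians, and the thick and thin grey bars span the central 50% and 90% of all 12510 genes tested. The median is −0.79 for the targets and −0.54 for the inhibitors, and between −0.21 and 0.07 for the other lists.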

How the data were processed

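Libraries of SL4 cells, 3 per group, were compared. As the study describes, poly-A mRNA was fragmented and reverse transcribed with random hexamers before Illumina sequencing. Per the labels, the processing tools were HISAT, Bowtie2 and RSEM and the build was mm39, with neither roles nor versions given. The values used are TPM for each library as the authors deposited them, and the deposited group means were left out. TPM keeps no read depth, and the sum over listed genes was 977400 to 986444 per library. Groups and replicate numbers were taken from sample titles, which read with or without overexpression of SEMA6A. The name pLV-Control is the study's, which in its sequencing methods calls the control cells SL4.

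Genes reaching a mean of 1 TPM (12510) were tested on log2(TPM + 1) using limma 3.58.1 with trend (R 4.3.3), with group as its single term. The thresholds (adjusted p 0.05, log2 fold change 0.5) are those the study states for its own limma comparisons, not for this experiment. For RNA-seq it names DESeq2, which needs counts and was not run. The members and gene lists were chosen with earlier results of these data known. Genes named are the members, all called genes of a list, the gene of highest mean TPM in each list, and Sema6a. One listed symbol, Skp1a, was not found. Deviations of same-numbered libraries were not positively correlated (r from −0.079 to −0.023), so no pairing by number was visible. With 3 libraries per group, this cannot exclude that they were prepared in pairs. Shared and overlapping transcript sequence was taken from GENCODE M21, which holds 97.0% of the identifiers. The code was tested on simulated data.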

Additional observations from a re-analysis of the deposited data

How the results depend on the processing

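Alternatives were a pseudocount of 0.1, no filter, a minimum mean of 5 TPM (which removed Nfkbie and Rel), median centring, quantile normalization, rescaling without mitochondrial genes, limma without trend or with robust estimation, the replicate block, other minimum folds and each library left out in turn. Bcl3, Nfkbia and Relb were called in all of them except that Nfkbia and Relb were not at a minimum log2 fold change of 1. The 5 called members became 3 with median centring, 3 with quantile normalization and 3 to 5 with a library left out (3 without pLV-Control replicate 1). With a minimum log2 fold change of 1, the counts were 1 member (Bcl3), 1 pathway gene (Ikbke), 9 targets and 385 of all genes, and with no minimum they were 28 pathway genes and 5959 of all genes. The calls over all genes were 640 higher and 1347 lower, against 1002 and 961 with median centring and 886 and 943 with quantile normalization. Centring moved the median of all genes from −0.06 to 0.03. Rel reversed to 0.0722 with quantile normalization, and Rela ranged from −0.0649 to 0.0408 with a library left out. Rnf11 (0.0355) and Tnfsf12 (0.0164) reversed with median centring, and Tnfsf12 (0.0767) with quantile normalization. None of these reversed values was called, and the cause was not tested. With the replicate number as a block, 1924 of all genes, 5 members, 8 pathway genes and 17 targets were called, and the block changed no call of a member or named gene. With a library left out, 1900 to 1975 of all genes, 6 to 9 pathway genes and 15 to 16 targets were called. With no read depth, counting error could not be given for low genes such as Rel and Nfkbie.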
